A study of Mus musculus with 22 samples.

Results

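Livers of mice given diclofenac daily were compared with livers of mice given saline, both taken on day 3, using every gene measured on the arrays of that day alone. The comparison covered 6 of the 22 liver arrays of the series, namely 3 labelled DCL_Treatment_liver_day3 and 3 labelled Control_liver_day3, and the members were chosen from these labels with no measured value. All animals were male C57BL6 mice, 8 weeks old, with no transgene or deletion named in the labels. The treated mice received diclofenac sodium intraperitoneally at 30 mg/kg once a day, and the control mice received matching volumes of saline on the same days. The labels give 5 mice for each group, whereas 3 arrays for each group were used here, and nothing in the labels speaks of pooled livers. The other 16 arrays belong to livers of day 1 and day 14, each day with its own saline group.

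Diclofenac, a non-steroidal anti-inflammatory agent, blocks the cyclooxygenases and can injure the liver. In an acute phase response, interleukin-6 acting through STAT3 and interleukin-1 acting through NF-kB, together with C/EBP factors, switch hepatocytes to the secretion of serum amyloid A, orosomucoid, fibrinogen and related plasma proteins. In the same livers, neutrophils can enter the sinusoids in answer to chemokines, and lipid, glycogen and drug metabolism can be altered.

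The livers of day 3 showed a broad rise of acute phase genes together with a smaller number of genes that fell. Of 11894 genes tested, 141 passed limma at a Benjamini-Hochberg adjusted p under 0.05, which is 1.19%, and 1771 (14.9%) had an unadjusted p under 0.05. Of the 141, 101 rose (0.849% of the genes tested) and 40 fell (0.336%). Among the genes that rose, 37 were at least 2-fold higher and 8 at least 8-fold higher after diclofenac. Among those that fell, 11 were at least 2-fold lower, and only Ppp1r3g exceeded 4-fold. Differences are given below on the log2 scale of the deposited array signals as diclofenac minus saline ± SE from limma, and signals are given for livers 1, 2 and 3 of each group in that order.

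The 3 diclofenac livers differed in how far they lay from the controls. Liver 1 lay farthest from the saline livers in 86 of the 101 genes that rose, and liver 3 lay nearest to them in 68. Liver 1 was also farthest in 22 of the 40 genes that fell, and liver 3 nearest in 27. The array of diclofenac liver 3 had the highest 3′ to 5′ ratio of the actin and Gapdh control probe sets, at 0.945 on the log2 scale. This ratio, a measure of RNA quality, was 0.762 and 0.783 for diclofenac livers 1 and 2 and 0.737 to 0.825 for the saline livers. The hybridisation controls were also brightest on that array, at 12.24. The part of these array measures in the spread among livers was not tested. The number of genes past the test moved with single livers, since it was 56, 73 or 418 when diclofenac liver 1, 2 or 3 was left out, and 45, 32 or 26 when saline liver 1, 2 or 3 was left out. It was also 3 without the trend of variance on signal, 27 with the arrays of day 1 in the same model and 1 with all 22 arrays. Of these, 2, 25 and 0 were among the 141 genes. The methods' t-test, with an unadjusted p under 0.05 and over 1.5-fold, passed 291 genes (2.45%) but none after Benjamini-Hochberg adjustment, and limma at an unadjusted p under 0.01 and at least 1.5-fold passed 324 (2.72%). The direction of every gene past the test was the same in each of these limma fits in which it was tested. Of the 141 genes, 20 passed in each of the 6 fits that left out a liver, of which 19 rose, and all 141 had diclofenac livers entirely above or below the saline livers, as did 11.1% of all genes upwards and 9.69% downwards. For 57 of the 141 genes another probe set was tested, and in 48 of these every other probe set had the same direction. In 16 of the 57 genes, another probe set also passed the test on its own in that direction.

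**Figure D1:**
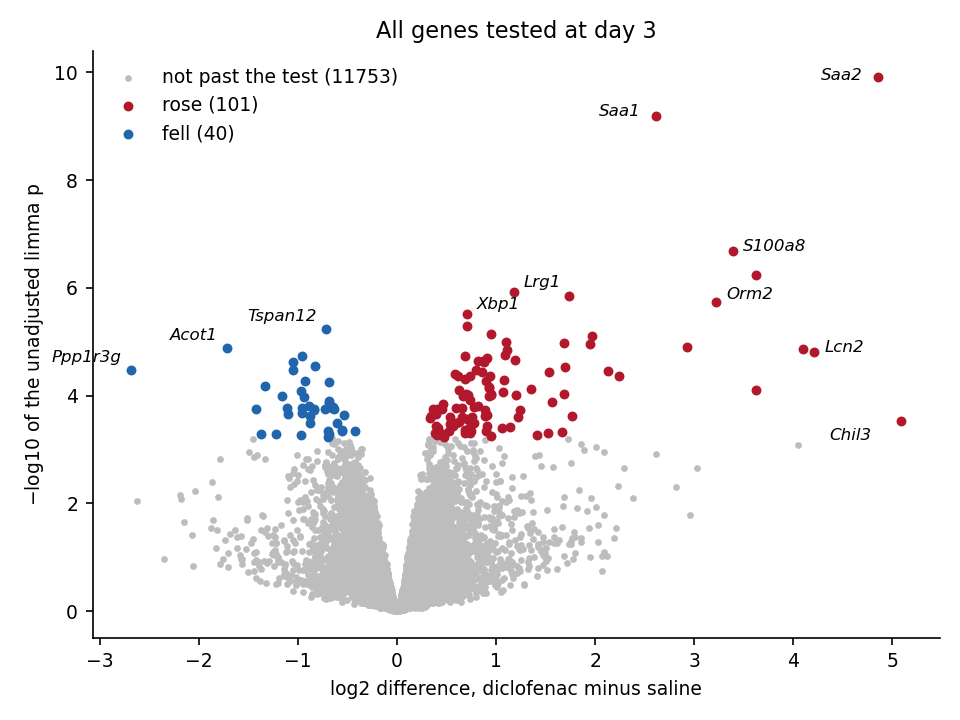
Each point is 1 of 11894 genes, with the log2 difference of diclofenac minus saline at day 3 on the x axis and the negative log10 of the unadjusted limma p on the y axis. The 101 genes that rose are red, the 40 that fell are blue, and Saa2 and Saa1 stand highest.

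Markers of hepatocytes were bright on every array, as in liver. All 8 hepatocyte markers measured lay above the array median on every array, with a summed signal of 357800 to 386400 in the diclofenac livers and 317500 to 351400 in the saline livers, so that the ranges did not overlap. The markers of sinusoidal endothelium, at 19670 to 22460 against 20620 to 22040, did overlap. The hybridisation control spots were slightly brighter on the diclofenac arrays, at 11.94 to 12.24 on the log2 scale against 11.8 to 11.92, with an exact permutation p of 0.1, which is the smallest that 3 against 3 arrays can give. The part of this difference in the results was not tested.

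Genes of the acute phase response rose in larger number than those of any other list. Lists and members were chosen with earlier results of these data known, so this ranking is not independent of the data. Of 31 genes encoding plasma proteins and liver proteins known to rise in this response, 18 rose, against 0.849% of all genes, and none fell. Of the 31 genes, 29 lay above 0, with a median log2 difference of 0.95 against 0.01 over all genes tested. In livers given diclofenac, the signal of Saa2 was 28.9-fold, that of Lcn2 18.5-fold and that of Orm2 9.35-fold the saline level. The count of 18 became 10, 11 and 8 without saline liver 1, 2 and 3, and 2 without the trend of variance on signal. It was 6 with the arrays of day 1 in the same model and 0 with all 22 arrays, while 29 of the 31 genes lay above 0 in both.

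Serum amyloid A, an apolipoprotein of high density lipoprotein during inflammation, is encoded on chromosome 7 by neighbouring genes (GRCm38.p6), with Saa4 at chr7:46727992-46732603, Saa1 at chr7:46740497-46743181 and Saa2 at chr7:46751833-46754313. The Saa2 signals were 45204, 37708 and 33156 in the diclofenac livers and 1682, 1307 and 1063 in the saline livers (4.85 ± 0.16, adjusted p = 1.47e-06). For Saa1 they were 60921, 47249 and 53480 after diclofenac against 9837, 8093 and 8494 after saline (2.61 ± 0.11, adjusted p = 3.88e-06). For Saa4, the constitutive form, signals of 39359, 29476 and 38215 in the diclofenac livers and 19347, 18332 and 17366 in the saline livers were found (0.95 ± 0.11, adjusted p = 0.00776). In each of these genes every diclofenac liver lay above every saline liver, and the 3 treated livers were close to each other. The neighbouring Saa3, at chr7:46711998-46719615, gave 2525, 8279.8 and 836 after diclofenac against 543, 779.5 and 756 after saline, with liver 2 far above the other treated livers, and the difference of 1.92 did not pass the test (adjusted p = 0.204). Saa1 and Saa2 are near-identical copies, and the Saa2 probe set is one that the array maker marks as liable to bind related transcripts, so the division of signal between them is uncertain.

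Orosomucoids are plasma glycoproteins that bind drugs, and their genes lie side by side on chromosome 4, with Orm1 at chr4:63344556-63348163 and Orm2 at chr4:63362449-63365877. The Orm2 signals were 30295, 17529 and 11016 in the diclofenac livers and 2503, 1560.5 and 1834 in the saline livers (3.23 ± 0.31, adjusted p = 0.00305). Orm1, already bright after saline, gave 54782, 44107 and 46321 after diclofenac against 31130, 33197 and 30297 after saline (0.61 ± 0.09, adjusted p = 0.0124). Orm3, located between them, had a log2 difference of 1.88 with livers apart, which did not pass the test (adjusted p = 0.0663). Lcn2, at chr2:32384637-32387739, encodes lipocalin 2, which withholds iron from bacteria by binding their siderophores. Its signals were 33467, 15585 and 8493 in the diclofenac livers and 1809, 785 and 490 in the saline livers (4.21 ± 0.52, adjusted p = 0.0091). The treated livers differed widely from each other, with liver 1 the highest and liver 3 the lowest, yet none came near the saline range.

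Further secreted proteins rose by smaller amounts. Apcs, the mouse pentraxin serum amyloid P, gave 35179, 20958 and 17871 after diclofenac against 7637, 6017 and 4982 after saline (1.95 ± 0.23, adjusted p = 0.00888). Lrg1, a leucine-rich plasma glycoprotein, gave 39145, 31149 and 28443 after diclofenac against 13767, 14447 and 14942 after saline (1.18 ± 0.11, adjusted p = 0.00275). Lbp, which presents bacterial lipopolysaccharide to CD14, gave 7789, 6549 and 6654 after diclofenac against 3412, 4434 and 3599 after saline (0.88 ± 0.12, adjusted p = 0.00989). All 3 genes had treated livers apart from the controls, at less than 4-fold. Serpina3n, a protease inhibitor, rose by 1.68, Prg4, a lubricating proteoglycan, by 1.53, Fgl1, a fibrinogen-like hepatokine, by 0.90, and Serpina10, an inhibitor of coagulation factor X, by 0.95. The inter-alpha-trypsin inhibitor heavy chains Itih3 and Itih4, which lie together on chromosome 14 (chr14:30908572-30923787 and chr14:30886476-30901986), rose by 0.68 and 0.58. The fibrinogen chains Fga (chr3:83026153-83033627) and Fgb (chr3:83042246-83049863) rose by 0.36 and 0.34, while the third chain Fgg had a difference of 0.21 that did not pass (adjusted p = 0.141).

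Several classical members did not pass the test. Haptoglobin, Hp, which binds free haemoglobin, gave 41446, 42665 and 43622 after diclofenac against 32359, 36442 and 34091 after saline with a difference of 0.31 (adjusted p = 0.0585). The metallothioneins Mt1 and Mt2, which bind zinc, had differences of 1.00 and 1.16 with livers apart (adjusted p = 0.103 and 0.109). Crp, a minor acute phase protein in the mouse, had overlapping groups. Plasma proteins known to fall in the acute phase did not fall here, since of 17 such genes none fell and Kng1, the kininogen precursor, rose by 0.39 (adjusted p = 0.0283), with a median of 0.15 over the list.

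**Figure D2:**
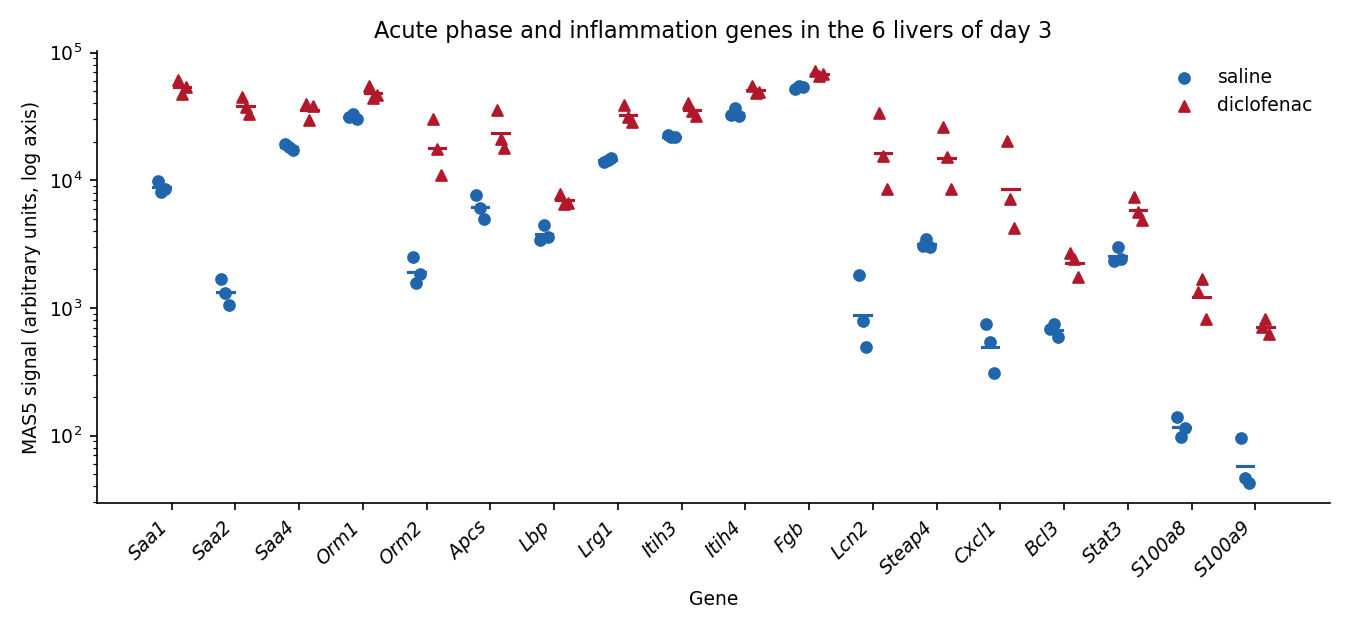
The MAS5 signal on a log axis is drawn for 18 genes in each of the 3 diclofenac livers (triangles) and the 3 saline livers (circles), and bars mark the geometric means. Treated and control livers are apart in every gene shown, and Lcn2, Cxcl1 and Steap4 spread the most among treated livers.

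To show the upstream sequence of genes that rose together, the 250 bases before the RefSeq transcription start (GRCm38.p6) are printed for 4 acute phase genes and the chemokine Cxcl1, read 5′ to 3′ on the gene's strand. Capitals mark matches, on either strand, to the C/EBP motif TTGCNNAA, the STAT motif TTCNNNGAA, the type II STAT3 motif CTGGGAA or the NF-kB motif. The windows lie at chr7:46751583-46751832 (plus strand) for Saa2, chr4:63362199-63362448 (plus strand) for Orm2, chr2:32387740-32387989 (minus strand) for Lcn2, chr3:83049864-83050113 (minus strand) for Fgb and chr5:90890995-90891244 (plus strand) for Cxcl1.
Saa2: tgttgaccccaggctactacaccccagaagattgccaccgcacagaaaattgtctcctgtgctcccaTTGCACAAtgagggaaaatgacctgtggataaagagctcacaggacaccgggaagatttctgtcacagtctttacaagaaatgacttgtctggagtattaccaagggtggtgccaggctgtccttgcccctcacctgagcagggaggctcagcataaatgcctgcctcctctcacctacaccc
Orm2: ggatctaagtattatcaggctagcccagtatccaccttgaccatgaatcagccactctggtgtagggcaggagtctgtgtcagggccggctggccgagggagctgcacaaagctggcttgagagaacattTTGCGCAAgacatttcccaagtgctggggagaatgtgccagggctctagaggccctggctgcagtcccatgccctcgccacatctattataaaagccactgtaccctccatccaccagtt
Lcn2: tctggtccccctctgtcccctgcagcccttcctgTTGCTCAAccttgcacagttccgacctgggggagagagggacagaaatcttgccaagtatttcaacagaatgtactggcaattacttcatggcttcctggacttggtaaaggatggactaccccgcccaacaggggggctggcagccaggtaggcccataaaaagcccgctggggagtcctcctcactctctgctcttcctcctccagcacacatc
Fgb: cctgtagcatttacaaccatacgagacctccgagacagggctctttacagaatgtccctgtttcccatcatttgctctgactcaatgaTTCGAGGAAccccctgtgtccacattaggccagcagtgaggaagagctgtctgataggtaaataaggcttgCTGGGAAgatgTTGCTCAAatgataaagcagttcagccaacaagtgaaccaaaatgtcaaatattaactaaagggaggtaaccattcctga
Cxcl1: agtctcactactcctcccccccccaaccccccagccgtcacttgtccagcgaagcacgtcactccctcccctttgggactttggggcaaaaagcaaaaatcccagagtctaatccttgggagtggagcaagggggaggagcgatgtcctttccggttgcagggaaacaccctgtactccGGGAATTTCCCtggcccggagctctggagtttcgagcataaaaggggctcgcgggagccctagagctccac

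A C/EBP match stood in each of the 4 acute phase windows, and the STAT and type II STAT3 matches stood in that of Fgb. In Cxcl1 the capitals mark overlapping NF-kB matches on both strands. Over the same windows of 27025 genes, 9.55% held the C/EBP motif, 7.18% the STAT motif, 9.08% the type II STAT3 motif and 7.01% the NF-kB motif. Over the 9647 of them tested at day 3, the shares were 7.66%, 5.97%, 9.44% and 8.41% in the same order. Among 81 genes that rose and had a window in the table, 17 held the C/EBP motif, 12 the STAT motif, 11 the type II STAT3 motif and 9 the NF-kB motif. Of the 81 genes, 13 were acute phase genes, of which 8 held the C/EBP motif, 5 the STAT motif, 4 the type II STAT3 motif and 1 the NF-kB motif. Among 32 genes that fell, the counts were 3, 0, 6 and 4. These are matches of letters and no test was made of them.

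Single members of the lists of the interleukin-1, interleukin-6 and tumour necrosis factor pathways rose, against 0.849% of all genes tested. Il1r1, the signalling receptor of interleukin-1, gave 5869, 3505 and 3162 after diclofenac against 1014, 1268 and 849.7 after saline (1.97 ± 0.23, adjusted p = 0.00777). Myd88, the adaptor shared by this receptor and the Toll-like receptors, rose by 0.68. These were the only members past the test among 20 genes of that pathway. Il1r1 passed in all 6 fits that left out a liver, and Myd88 in only 1. Bcl3, an IkB family protein that acts in the nucleus with p50 and p52, gave 2678, 2418 and 1746 after diclofenac against 682, 748 and 594 after saline (1.74 ± 0.16, adjusted p = 0.00275) and was the single member past the test of 21 genes of NF-kB and its inhibitors.

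Stat3, the transcription factor of interleukin-6 signalling, gave 7324, 5639.9 and 4856 in the diclofenac livers and 2334, 3007 and 2420.2 in the saline livers (1.19 ± 0.15, adjusted p = 0.00988). The other probe sets tested for Stat3 had differences of 1.66, 1.025 and 0.05. Stat3 was the only one past the test of 22 genes of the interleukin-6 receptors, JAK and STAT. The treated livers were entirely higher in 6 of the 22 genes and entirely lower in 5, against 11.1% and 9.69% of all genes. Socs3, the feedback inhibitor of this pathway and a STAT3 target, gave 7175, 3931 and 1907 after diclofenac against 1267, 1047 and 847 after saline. The treated livers were all above the controls in Socs3, but liver 1 stood far above liver 3 and the difference of 1.86 did not pass (adjusted p = 0.0573). For Lifr, the receptor of leukaemia inhibitory factor, the difference was -0.80 with livers apart (adjusted p = 0.0663). Among 20 genes of the death receptors and the tumour necrosis factor family, the receptors Tnfrsf1a and Tnfrsf12a rose by 0.90 and 1.66, and Litaf, which is induced by lipopolysaccharide, by 1.14. Tnfrsf1a, Tnfrsf12a and Litaf each passed in only 1 of the 6 fits that left out a liver.

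Of 19 chemokine genes tested, Cxcl1 and Ccl6 rose. Cxcl1, which draws neutrophils through CXCR2, gave 20250, 7118 and 4249 after diclofenac against 742, 537 and 308 after saline (4.10 ± 0.50, adjusted p = 0.00902), the difference between the groups exceeding the wide range among treated livers. Ccl6, a chemokine of macrophages and other myeloid cells, gave 1347, 1236 and 1264 after diclofenac against 875, 754 and 726 after saline (0.71 ± 0.11, adjusted p = 0.0191), and here the treated livers were almost level.

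Some markers of neutrophils rose in the treated livers, namely S100a8, S100a9, Lcn2, Chil3 and Wfdc21. Of 19 such markers measured, 12 passed the filter on low signals, but Prtn3, Mmp9 and Chil3 did so through the treated livers alone, and without the filter 4 of all 19 rose, 15 lay above 0 and the median was 0.40. Ngp gave 145.6, 142.1 and 106.6 after diclofenac against 86.7, 187.6 and 133.2 after saline, with overlapping groups. Hdc gave 90.4, 20 and 42.5 against 67.3, 62.5 and 81.9, also overlapping. Lcn2 is also a member of the acute phase list, and Wfdc21 was already at 27273 to 30164 in the saline livers. Which cells gave these signals was not tested. S100a8, a subunit of calprotectin, gave 1336, 1678 and 812 after diclofenac against 139.8, 97 and 115 after saline (3.40 ± 0.26, adjusted p = 0.000835). Its partner S100a9 gave 706, 818 and 624 after diclofenac against 95.8, 46.4 and 42.9 after saline (3.63 ± 0.31, adjusted p = 0.00169). Both genes lie on chromosome 3, at chr3:90669071-90670034 and chr3:90692630-90695721, and for both the treated livers lay far above the controls, although the mean saline signal of S100a9 was below the array median, where folds are uncertain. Chil3, a chitinase-like protein of myeloid cells, gave 210.3, 349.8 and 157 after diclofenac against 2.97, 13.3 and 7.39 after saline, with all saline livers below the array median (adjusted p = 0.0332).

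The markers Camp, Ltf, Cxcr2, Cd177 and Itgam lay below the array median on every array. The summed signal of the list was 49250 to 78100 in the treated and 28580 to 33000 in the saline livers, and without Lcn2 and Wfdc21, left out after their values had been seen, it was 2685 to 4443 against 813.5 to 1027. Since these are whole livers, more cells of a type and more RNA for each cell cannot be told apart.

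For macrophages, all 20 markers measured were tested and none passed, with 12 at an unadjusted limma p under 0.05 (14.9% of all genes). The diclofenac livers were entirely above the saline livers in 11 of these 20 markers, against 11.1% of all genes, and the summed signal was 57410 to 80890 against 52260 to 56630. Marco, a scavenger receptor, gave 531, 1251 and 337 after diclofenac against 265, 215 and 319 after saline, with a difference of 1.21 that did not pass (adjusted p = 0.199), and liver 2 was the highest in Marco and in most of the list. The monocyte marker Plac8 rose by 0.78. Of 15 measured T cell markers, 1 was above the array median on every array and 7 were below it on every array, and of 12 natural killer cell markers none was above it and 5 were below it throughout.

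Iron, zinc and magnesium handling showed a few strong members. Steap4, a metalloreductase, gave 26225, 15111 and 8513 after diclofenac against 3053, 3471 and 2989.8 after saline (2.25 ± 0.32, adjusted p = 0.0124). Tfrc, the transferrin receptor, rose by 0.93, and Slc39a14, which brings zinc and iron into hepatocytes, by 1.08. With Lcn2, these were the 4 members past the test of 28 iron genes, against 0.849% of all genes that rose. Lcn2 and Steap4 are also members of the acute phase list. Leaving out 1 liver at a time gave 1 to 5 rises in the iron list. The other probe set tested for Tfrc had a difference of 0.12, and those for Slc39a14 had 0.87, 0.91 and -0.22. The magnesium transporters Slc41a1 and Slc41a2 rose by 1.07 and 1.56, and Slc3a1, the heavy subunit of a cystine and dibasic amino acid transporter, by 1.09, being the 3 past the test of 26 genes of that list. Leaving out 1 liver at a time gave 0 to 3 rises and 0 to 2 falls in these 26 genes.

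The largest rises also included single genes that belong to none of these groups. Gnat1, the transducin subunit of rod photoreceptors, gave 596, 415 and 407 after diclofenac against 86.3, 42 and 14.9 after saline (3.62 ± 0.55, adjusted p = 0.0178), with a mean saline signal below the array median. B3galt1, a galactosyltransferase, gave 5787, 2010 and 2122 after diclofenac against 304, 431 and 429.8 after saline (2.92 ± 0.35, adjusted p = 0.00902). In both genes liver 1 was the highest treated liver. The uncharacterised transcript G530011O06Rik rose by 2.13, and Acnat2, an acyl-CoA amino acid N-acyltransferase, by 1.77.

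Genes induced by interferon rose in part. Of 36 interferon-stimulated and antigen presentation genes, the GTPase gene Ifi47, the antiviral membrane protein gene Ifitm2 and Ly6e rose, by 0.75, 0.59 and 0.73. None fell, and the treated livers were entirely higher in 16, against 11.1% of all genes, with a list median of 0.26. Leaving out 1 liver at a time gave 0 or 1 call in this list, except for 7 without diclofenac liver 3. The other probe set tested for Ly6e had a difference of -0.06. In coagulation, 4 of 28 genes rose (0.849% of all genes) and 16 had treated livers entirely higher (11.1%), the 4 being Fga, Fgb, Kng1 and Serpina10. The 4 calls became 0 without any 1 of the saline livers, 1 and 2 without diclofenac livers 1 and 2, and 6 without diclofenac liver 3. Of 28 complement genes, C4bp, an inhibitor of the classical pathway, rose by 0.47, and 10 had treated livers entirely higher against the same 11.1%.

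Xbp1 was the only gene past the test of 41 genes of the unfolded protein response. This transcription factor drives endoplasmic reticulum expansion in secretory cells, and its signals were 40735, 36542 and 36775 in the diclofenac livers and 24142, 21848 and 24067 in the saline livers (0.70 ± 0.07, adjusted p = 0.00457). All treated livers lay within a narrow band above the controls. Among the genes that did not pass, Herpud1, a degradation component, gave 8678, 10164 and 11542 after diclofenac against 16247, 13590 and 12066 after saline and Trib3, a target of ATF4 and CHOP, 319.5, 210.1 and 541 after diclofenac against 667, 609 and 635 after saline, with differences of -0.46 and -0.94 (adjusted p = 0.137 and 0.159). The list median was -0.06 at day 3 and 0.26 and 0.39 at days 1 and 14, and the difference between days was not tested for the list. Other transcription factors that rose were Foxa3 (0.80) and Prox1 (0.86), both known from liver development, and Id2 (0.87), an inhibitor of helix-loop-helix factors.

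**Figure D3:**
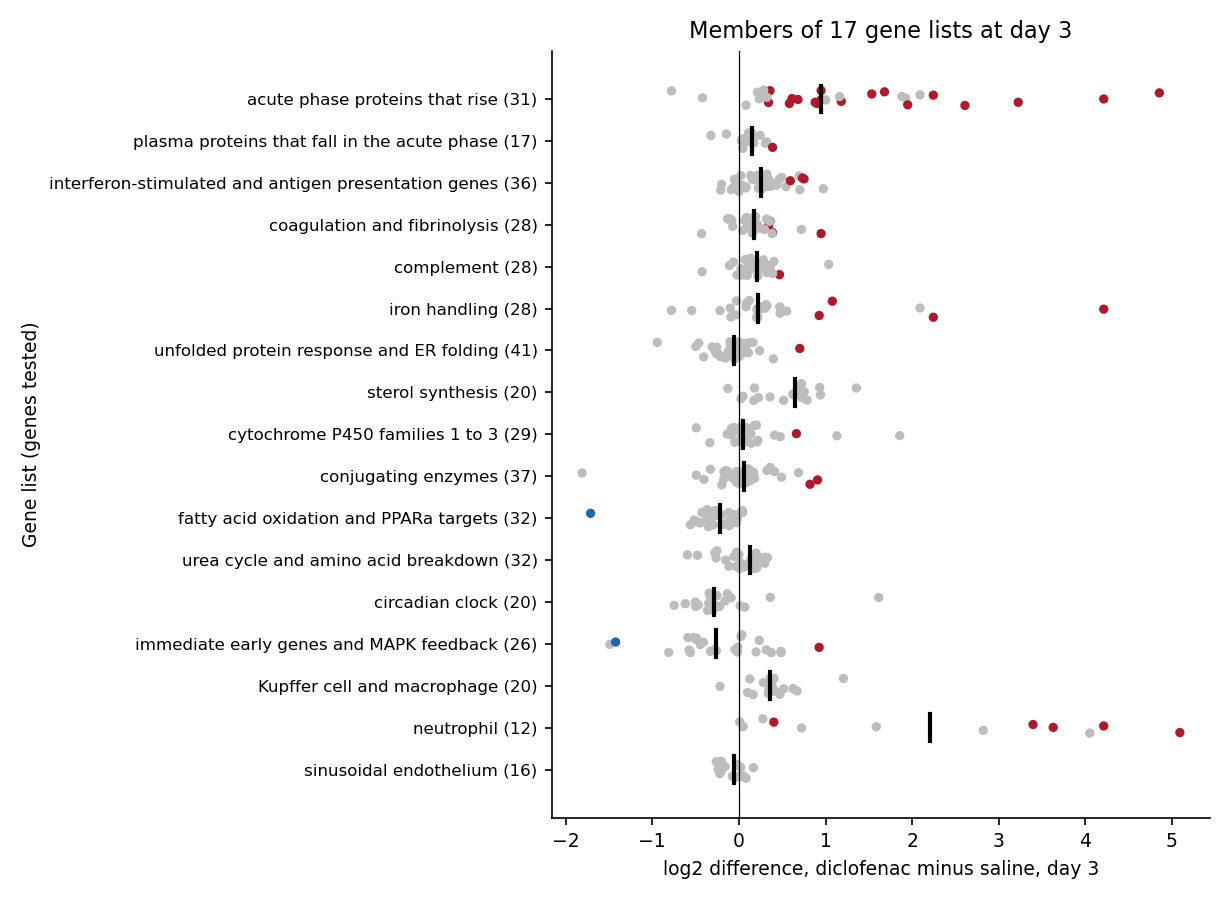
Each point is a tested gene of 1 of 17 gene lists, placed by its log2 difference of diclofenac minus saline at day 3 (x axis), with black bars for list medians and the number of genes tested in brackets. Red genes rose, blue genes fell and grey genes did not pass the test, and the acute phase list holds 18 red points at a median of 0.95.

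The genes that fell included members of glycogen, fatty acid and regulatory pathways. The largest fall was that of Ppp1r3g (chr13:35958824-35970388), a subunit that brings protein phosphatase 1 to glycogen, with 302, 426 and 209 after saline against 46.8, 62.3 and 34.7 after diclofenac (-2.68 ± 0.37, adjusted p = 0.0116). The treated livers were 6.43-fold lower and well separated, though at low signal. It was the only one past the test of 34 genes of glycolysis, gluconeogenesis and glycogen. G6pc, which releases glucose from glucose 6-phosphate, gave 4801, 7407 and 8566 after saline against 3072, 1613 and 3834 after diclofenac, and its difference of -1.33 did not pass (adjusted p = 0.0772).

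Acot1 (chr12:84009502-84017670), a cytosolic acyl-CoA thioesterase and target of PPARa, gave 2244, 2659 and 2749.9 after saline against 555, 780.2 and 1077 after diclofenac (-1.71 ± 0.21, adjusted p = 0.00902). Of 32 genes of fatty acid oxidation and PPARa targets it was the only one past the test, none rose, and the diclofenac livers were entirely lower in 15, against 9.69% of all genes. The list median was -0.22, and 3 of the 32 genes lay above 0. Bdh1, a ketone body dehydrogenase, and Eci1, an enoyl-CoA isomerase, are examples with livers apart, at -0.37 and -0.34 (adjusted p = 0.071 and 0.119). Acot1 has close relatives that can share its probes. Acot2, one of them, had a difference of -0.45 (adjusted p = 0.176).

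In lipid synthesis, Lpin2 and Fabp2 fell and no gene of the 34 tested rose. Lpin2, a phosphatidate phosphatase that makes diacylglycerol, gave 9841, 8703 and 7933 after saline against 3619, 4334 and 5889 after diclofenac (-0.96 ± 0.16, adjusted p = 0.0249). Fabp2, a fatty acid binding protein, gave 5494, 6335 and 6974 after saline against 3138, 3816 and 3627 after diclofenac (-0.83 ± 0.11, adjusted p = 0.0113). Both had treated livers entirely below the controls, and in Lpin2 liver 3 was the nearest to them.

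No gene of sterol synthesis passed the test. Of 20 genes, 19 lay above 0 with a median of 0.65, and 5 had treated livers entirely higher (11.1% of all genes), while 13 had an unadjusted limma p under 0.05 (14.9%). Dhcr7, the last enzyme of cholesterol synthesis, gave 3321, 2787 and 2588 after diclofenac against 1894, 1594 and 2133 after saline (0.63, adjusted p = 0.0593). Sqle, squalene epoxidase, gave 3199.5, 4079 and 1556 after diclofenac against 1672, 1249 and 580.4 after saline with overlapping groups (1.36, adjusted p = 0.163). Of the 6 fits that left out a liver, only that without diclofenac liver 3, the lowest treated liver in both genes, gave calls in the list, 3 of them among 418 over all genes.

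Single regulators fell, while the lists that hold Tsc22d3 and Spry4 had a member that rose as well. Of 26 glucocorticoid receptor targets, Tsc22d3 fell and Lcn2 rose, and the treated livers were entirely higher in 7 and lower in 4. Of 26 immediate early genes and MAP kinase feedback genes, Spry4 fell and Ier5, an immediate early gene, rose by 0.93, with 3 entirely higher and 5 lower. Over all genes tested, 11.1% were entirely higher and 9.69% entirely lower. Tsc22d3, the glucocorticoid-induced leucine zipper, gave 6044, 6708 and 5642 after saline against 3289, 2442 and 3773 after diclofenac (-0.97 ± 0.15, adjusted p = 0.0178). Spry4, a feedback inhibitor of MAP kinase signalling, gave 426, 409 and 561 after saline against 121, 203 and 207 after diclofenac (-1.42 ± 0.24, adjusted p = 0.0249). Plk3, a stress-responsive polo-like kinase, gave 1842, 1758 and 1969 after saline against 819.9, 516 and 951 after diclofenac (-1.33 ± 0.20, adjusted p = 0.0165). The control livers were nearly level in Tsc22d3 and Plk3, and in all 3 genes the treated livers all lay below them. Slc25a33, a mitochondrial pyrimidine nucleotide carrier, fell by 0.96 with 3166, 2845 and 2987 after saline against 1343, 1469 and 1838 after diclofenac (adjusted p = 0.00956). Dusp1, a MAP kinase phosphatase, gave 1384, 1841 and 4158 after saline against 817, 769.7 and 759 after diclofenac and did not pass, with a wide spread among the control livers (-1.49, adjusted p = 0.0676). Among 20 circadian clock genes none passed, with 6 at an unadjusted limma p under 0.05 (14.9% of all genes) and a list median of -0.28.

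The largest falls also included genes of varied or little known function. Mcc fell by 1.37, Nrep by 1.22, Cpeb2, which binds messenger RNA, by 1.16, Plekhf1 by 1.11 and N4bp2l1 by 1.10. Tbc1d8 and Fam214a fell by 1.05 each and Cfap20 by 0.97. In each of these 8 genes the treated livers lay entirely below the controls.

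For some of the genes that fell, the saline livers of day 3 were themselves higher than the saline livers of day 1. The mean signal of Tsc22d3 was 3060 in saline livers of day 1, 6131 in those of day 3 and 3168 in diclofenac livers of day 3. Slc25a33 gave 1588, 2999 and 1550 in the same order, and Ppp1r3g gave 70.3, 312 and 48. The rise between the saline groups passed limma for Tsc22d3 (1.01, adjusted p = 0.0351) and Slc25a33 (0.92, adjusted p = 0.049) but not for Ppp1r3g (2.15, adjusted p = 0.272), and 28 of 12900 genes (0.217%) passed in that comparison. Both comparisons use the same saline livers of day 3. Each day has its own arrays, so day and any array batch cannot be told apart here. The 18S control probe sets read 14.5 to 14.8 on the log2 scale on the arrays of day 3 and 11.7 to 12.4 on those of day 1.

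**Figure D4:**
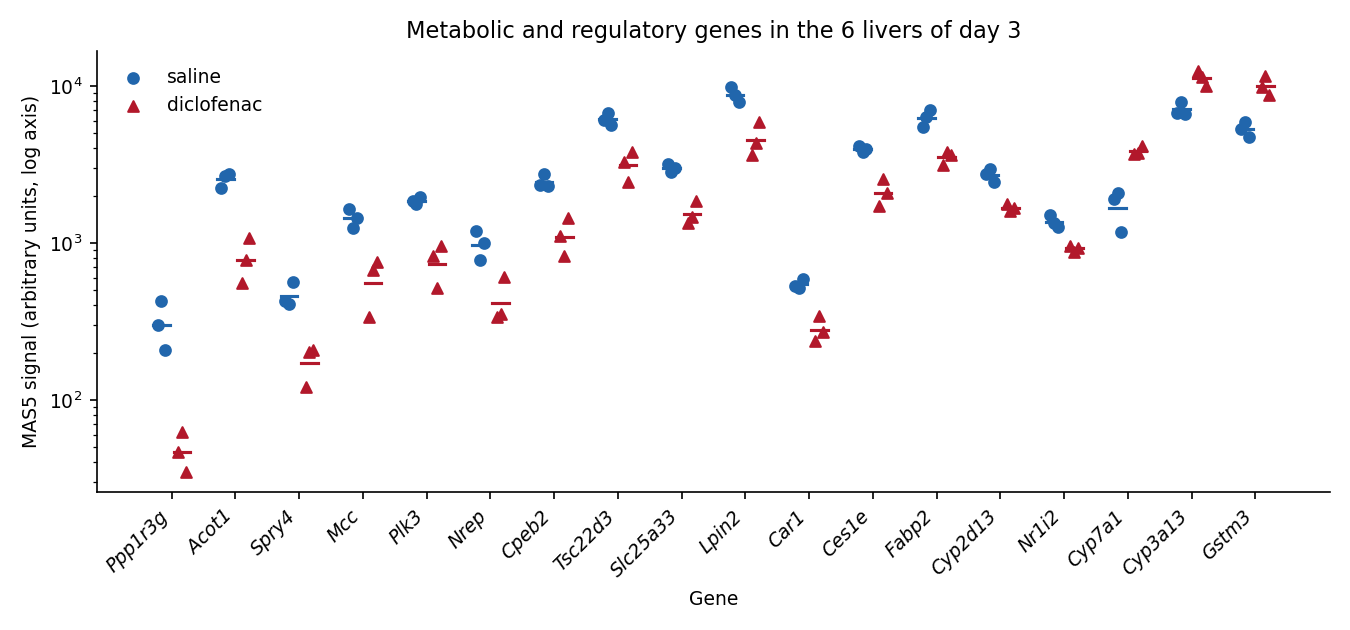
The MAS5 signal on a log axis is drawn for 18 metabolic and regulatory genes in each of the 3 diclofenac livers (triangles) and the 3 saline livers (circles), with bars for geometric means. The first 15 genes fell, whereas Cyp7a1, Cyp3a13 and Gstm3 rose, and no gene has overlapping groups.

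Genes of drug and bile acid metabolism changed singly. Nr1i2 encodes the pregnane X receptor, a sensor of drugs, and gave 1496, 1336 and 1261 after saline against 963, 879 and 931 after diclofenac (-0.56 ± 0.11, adjusted p = 0.0427), as the only one past the test of 23 nuclear receptors of drug and lipid metabolism. Nr1i2 passed in only 1 of the 6 fits that left out a liver. Of 29 genes of cytochrome P450 families 1 to 3, Cyp3a13 rose, with 12468, 11384 and 9938 after diclofenac against 6737, 7916 and 6648 after saline (0.66 ± 0.10, adjusted p = 0.0191). Cyp3a11, a major target of the pregnane X receptor, gave 64149, 58256 and 60483 after diclofenac against 48221, 56777 and 54089 after saline (0.20, adjusted p = 0.243). The list median was 0.05. Cyp2d13, annotated as a transcribed pseudogene of the P450 family and not in that list, fell by 0.69 (adjusted p = 0.0142).

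Ces1e, a carboxylesterase, gave 4114, 3780.4 and 3984 after saline against 1719.9, 2554 and 2066 after diclofenac (-0.92 ± 0.13, adjusted p = 0.0141) and was the only one past the test of 16 hydrolases. Gstm3, a glutathione transferase, rose with 9788, 11544 and 8783 after diclofenac against 5351, 5916 and 4745 after saline (0.91 ± 0.12, adjusted p = 0.00988), and Nnmt, which methylates nicotinamide, rose by 0.82, being 2 of 37 conjugating enzymes. Probe sets of glutathione transferases of this class can bind close relatives. The other probe set tested for Gstm3 had a difference of 0.11. The list medians of the conjugating enzymes were -0.31, 0.06 and -0.44 at days 1, 3 and 14, a difference that was not tested for the list.

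Cyp7a1 (chr4:6265612-6275632), the rate-limiting enzyme of bile acid synthesis, rose with 3681, 3755 and 4118 after diclofenac against 1902, 2083 and 1172 after saline (1.21 ± 0.19, adjusted p = 0.0191). Its treated livers were level and its control livers lower. On the other days the difference was -1.13 at day 1 and -1.90 at day 14, with wide and overlapping groups, namely 826.7 to 7753 in treated livers of day 1 and 98.3 to 6105 in those of day 14. The difference between the effects of day 3 and day 1 was 2.33 and that between day 3 and day 14 was 3.11, and neither passed limma (adjusted p = 0.882 and 0.773). The saline livers of day 3, at 1172 to 2083, lay below the saline means of 3886 at day 1 and 4357 at day 14, where day and array batch cannot be told apart.

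The genes past the test at day 3 were followed in the livers of the other days, which share no array with those of day 3. Of the 101 genes that rose, 96 were also higher after diclofenac at day 1 (50% of all genes tested lay above 0) and 97 at day 14 (47.9%). The treated livers were entirely above the controls in 56 of them at day 1 (8.37% of all genes) and in 47 at day 14 (2.14%). Of the 40 genes that fell, 37 were lower at day 1 (50%) and 34 at day 14 (52.1%), with livers entirely apart in 14 and 2 (8.27% and 1.52%). No gene passed limma at day 1 or day 14 when the arrays of that day were fitted alone, with smallest adjusted p of 0.571 and 0.0851 and 1025 (8.62%) and 1273 (10.7%) genes at an unadjusted p under 0.05.

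Side by side, the median difference of the genes that rose on days 1, 3 and 14 was 0.65, 0.89 and 0.72, and they were selected by the value of day 3. Saa2 had 2.88, 4.85 and 4.84 in the same order, Orm2 3.28, 3.23 and 4.28, and Lcn2 4.44, 4.21 and 3.91. For Saa2 the mean saline signal was 9162, 1351 and 11030 on these days and the mean diclofenac signal 45340, 38690 and 78470, so that the saline level of day 3 was the lowest. Day and array batch cannot be told apart in these levels. The poly-A spike control probe sets read 8.44 to 8.59 on the log2 scale at day 3 and 3.65 to 4.55 at day 14. Bcl3 had 0.21, 1.74 and 0.66. The difference of its effect between day 3 and day 1, at 1.53, had an unadjusted p of 8.2e-05 in limma but an adjusted p of 0.353. Slc25a33, which fell by 0.96 at day 3, was 0.506 at day 1 with overlapping groups. The difference of -1.47 did not pass limma (adjusted p = 0.275). Plk3, which fell by 1.33 at day 3, was 1.065 at day 14 with overlapping groups. That difference, of -2.39, did not pass limma either (adjusted p = 0.324). No gene of 12900 passed for a different effect at day 3 and day 1 (smallest adjusted p = 0.275, with 684 genes at an unadjusted p under 0.05), so that none can be called particular to 3 doses against 1. For day 3 against day 14, 1 of 12787 genes passed (0.00782%), Clstn3, which encodes a calsyntenin.

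**Figure D5:**
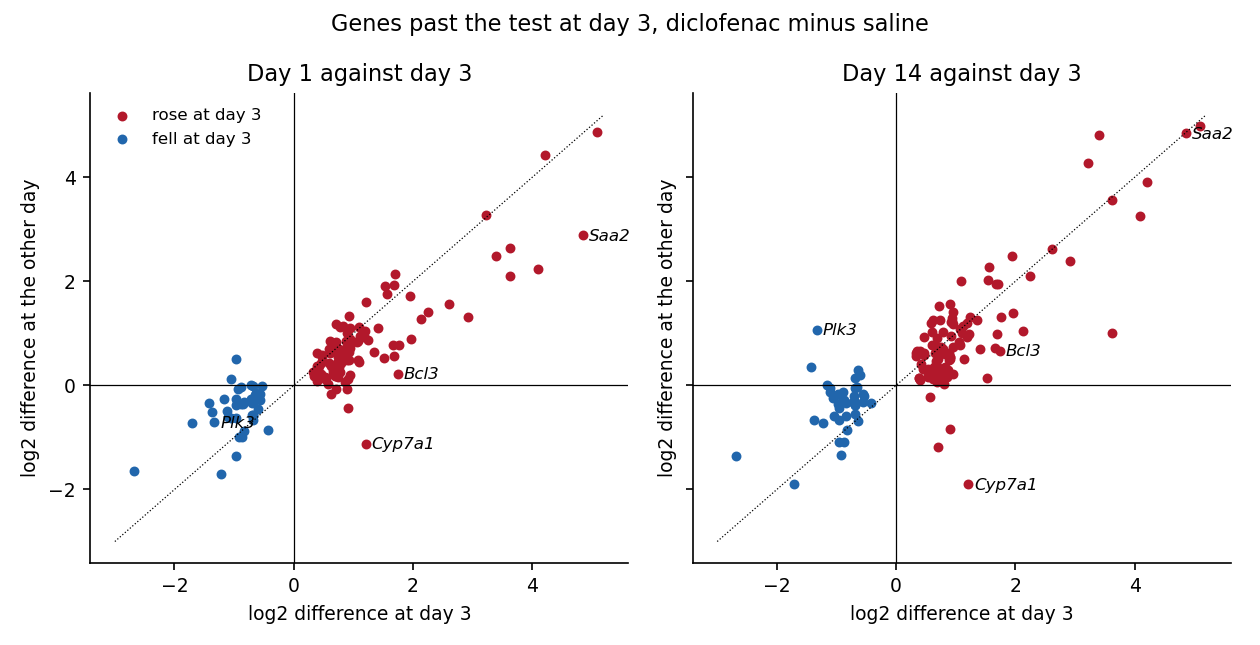
For the 141 genes past the test at day 3, the log2 difference of diclofenac minus saline at day 1 (left) and day 14 (right) is plotted on the y axis against that of day 3 on the x axis, in red for the 101 that rose and blue for the 40 that fell, with a dotted line of equality. Most points lie on the same side of 0 on both axes, and Cyp7a1 is on the opposite side in both panels.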

How the data were processed

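RNA of mouse liver was hybridised to Affymetrix Mouse 430 2.0 arrays, and the authors deposited intensity values made with MAS5, according to their processing notes, on a linear scale with a trimmed mean of 500 on each array (2% trimmed at each end). From the 45101 probe sets, 34958 with a single gene symbol in GEO's platform annotation were kept, 932 with several symbols and 9211 with none were left out, and the brightest probe set represented a gene, giving 18194 genes. A gene was tested if it exceeded the array median on at least 3 of the 6 arrays, with limma 3.58.1 in R 4.3.3 on log2 intensity, with a trend of variance on signal and Benjamini-Hochberg adjustment at 0.05. No pseudocount was added. The precision is limited by 3 arrays for each group. The labels number the arrays of a group without tying each to a mouse, so p-values measure the spread between these samples, which may in part be technical.

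Effects of day 3 and of another day were compared by an interaction term on 12 or 16 arrays. The genes named were the 15 largest rises and falls, a part of those that a rule of up to 4 members with livers apart drew from each of 58 gene lists, and genes known from the study or from earlier results. Other genes past the test were named by function after their values had been seen. Members and lists were chosen with earlier results of these data known. Promoters came from RefSeq (GRCm38.p6), the first start listed for each gene, and the positions of genes from the same assembly. Replicate numbers did not pair the livers. The fit was tested on simulated data with known changes. Alternatives covered filters, normalization, probe sets, variance models, samples and left-out livers. Python 3.11.15 and matplotlib 3.10.9 served for summaries and plots.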

Additional observations from a re-analysis of the deposited data

Results flagged for a closer look

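Clstn3 passed limma for a different effect at day 3 and day 14, at 2.094 on the log2 scale (adjusted p = 0.0447). Its signals were 150.3 to 175.2 in diclofenac and 58.96 to 60.37 in saline livers of day 3, against 206.7 to 435 and 442 to 687.2 at day 14. The adjusted p lay between 0.0723 and 0.203 in the 10 alternatives run for this comparison, none of which kept the call. Its day 3 difference alone did not pass (adjusted p = 0.0716). Day and array batch cannot be told apart in the levels of the 2 days.

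Livers of 4 genes named in this report were entirely apart at day 3 and entirely apart in the opposite direction on another day. Over all genes tested, the treated livers were entirely higher in 11.1% and lower in 9.69% at day 3. At day 1 these shares were 8.37% and 8.27%, and at day 14 they were 2.14% and 1.52%. The share of all genes apart in opposite directions on different days is not given here. Apoa4, an apolipoprotein, rose by 0.71 at day 3 and was -1.18 at day 14, and the difference of 1.89 did not pass limma (adjusted p = 0.216). Cyp39a1, an oxysterol hydroxylase, was 0.58 and -0.72 on these days (adjusted p of the difference 0.749). Eci2, an enoyl-CoA isomerase, was -0.426 at day 3 and 0.28 at day 1 (adjusted p = 0.882), and Creb3l3, a liver transcription factor, was -0.211 and 0.09 (adjusted p = 0.882).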

How the results depend on the processing

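Of 11894 genes, 141 passed at day 3. The count stayed within 1.5 times under no filter, a 60th percentile filter, quantile normalization, median centring, an added array median, robust moderation, array weights and every probe set on its own (115 to 186). It was 82 with the mean of all probe sets, 3 without the variance trend, 27 when the 12 arrays of both early days shared a model and 1 when all 22 did, and the cause was not tested. Of these, 71, 2, 25 and 0 were among the 141 genes. The methods' t-test gave 291 at their threshold and 0 after Benjamini-Hochberg, and limma at p under 0.01 and at least 1.5-fold gave 324. Leaving out a liver gave 26 to 418. Livers sharing a replicate number did not deviate together (correlations -0.015, -0.023 and 0.065), and the fit with the replicate number as a block gave 184. The 1 gene that differed between day 3 and day 14 became 0 under no filter, quantile normalization, median centring, all 22 arrays and each left-out liver (0 to 0). Day 3 and day 1 differed in 0 genes in every alternative run. The 28 genes of the saline comparison became 32 with quantile normalization and 21 with median centring, both chosen after seeing the data. No gene named with a value changed direction in any fit. Centring shifted the median of all genes from 0.007 to -0.051. Signals near the array median limit the falls of dim genes.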
